A study of Homo sapiens with 20 samples.

Results

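The comparison of the lowest dose of recombinant SPARC with untreated cells was described across all genes with enough counts, in hTCEpi, a human cell line that was made by immortalizing corneal epithelium through telomerase. The cells labelled SPARC 0.05 received 0.05 µg/ml recombinant human SPARC in keratinocyte growth medium for 24 h, and the control cells received 0 µg/ml in the same medium. Each group had 5 samples. Of 60671 gene identifiers in the deposited counts, 22938 had enough counts to test. The series also held 5 samples each at 0.5 and 5 µg/ml (SPARC 0.5 and SPARC 5), which entered the same model and serve here only to place the low dose. All samples come from a single immortalized line in culture, and no label says whether the 5 replicates were separate cultures, so p-values measure the spread between these samples, which may be technical.

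SPARC is a secreted matricellular glycoprotein: it binds collagen and other matrix components, and acts on cells by changing their contact with the matrix and the activity of growth factors rather than by forming fibres itself. In the cornea it is known from wound healing, where stromal cells and the epithelium lay down provisional matrix that contains fibronectin. Cells also tune their own lipid supply: the transcription factors SREBP1 and SREBP2 are held in the endoplasmic reticulum by INSIG proteins when sterol is plentiful, and otherwise switch on the enzymes of sterol and fatty acid synthesis, while LXR receptors switch on efflux transporters such as ABCG1 when sterol is abundant.

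Total counts lay between 33355286 and 41531529 in SPARC 0.05 samples and between 32741250 and 40168918 in control samples. Basal epithelial markers were abundant: KRT5, the basal keratin, averaged 11171 ± 111 counts-per-million (CPM, scaled with TMM factors) in SPARC 0.05 samples and 11321 ± 354 CPM in control samples, and TP63, a transcription factor of stratified epithelium, averaged 271 ± 2.02 CPM in SPARC 0.05 samples and 266 ± 1.7 CPM in control samples. PAX6, the eye-field factor, was low, at 7.22 ± 0.893 CPM in SPARC 0.05 samples and 7.66 ± 0.954 CPM in control samples, and KRT12, the keratin that defines differentiated corneal epithelium, had between 0 and 4 counts in any of these 10 samples. Of 14 markers of corneal stroma and fibroblasts, only PDGFRA and KERA were at 0 counts in all 10 samples, and 7 had enough counts to test. The summed level of the 14 was 60.7 to 66.4 CPM in SPARC 0.05 samples and 59.7 to 63.1 CPM in control samples. Of 15 immune markers only HLA-DRA was at 0, and 4 had enough counts to test. The sum of the 15 was 4.13 to 4.70 CPM in SPARC 0.05 samples and 4.11 to 5.73 CPM in control samples. Of 12 conjunctival and goblet markers only TFF1 was at 0, and 9 had enough counts to test. The sum of the 12 was higher, at 914 to 953 CPM in SPARC 0.05 samples and 862 to 984 CPM in control samples. The 13 endothelial and melanocyte markers, of which 7 had enough counts to test, summed to 10.9 to 15.0 CPM in SPARC 0.05 samples and 12.9 to 15.2 CPM in control samples. These sums are not split by gene, and which cells the counts came from was not tested. The cells' own SPARC transcript had between 0 and 8 counts in SPARC 0.05 samples and between 1 and 12 in control samples and was too low to test. In the SPARC 0.05 sample with 0 counts, 3 counts would be 0.0714 CPM, a limit that covers counting error only.

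At SPARC 0.05, 61 genes changed: 43 rose and 18 fell (adjusted p under 0.05, edgeR quasi-likelihood test with Benjamini-Hochberg adjustment over all genes tested), which is 0.266% of all genes tested (0.187% higher, 0.0785% lower). Without adjustment 2095 genes had p under 0.05. The changes were small: the median size was 0.14 on the log2 scale among genes that rose and 0.19 among those that fell, and 4 of the 61 exceeded 0.5. The 61 were led by genes of lipid synthesis (HMGCS1, SCD), the nuclear long noncoding RNA MALAT1, the stress-response gene IER3, and fibronectin (FN1), which had the largest fold change among the 10 most abundant called genes. In 45 of the 61 the samples of the groups did not overlap. Over all genes tested, 0.95% had all 5 SPARC 0.05 samples above all 5 control samples, and 0.789% had all 5 below. With RLE size factors, another scaling, 43 genes also rose and 18 fell. When the libraries were scaled to their totals only, without TMM or RLE factors, 33 genes rose and 36 fell, so the excess of rises was not seen under that scaling.

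**Figure D1:**
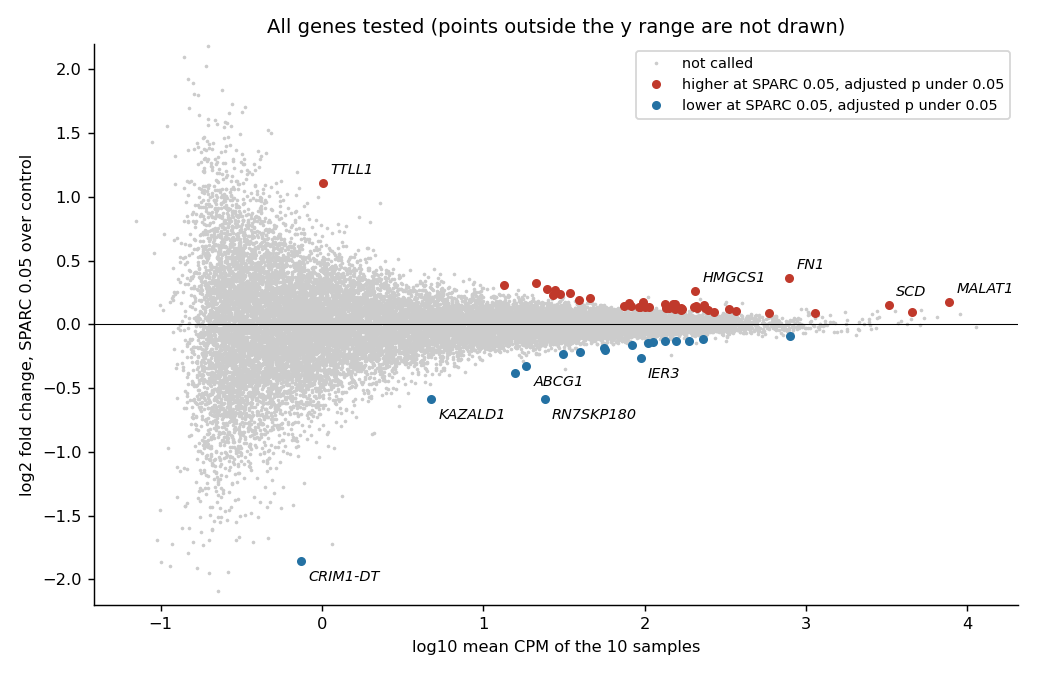
Log2 fold change of SPARC 0.05 over control (y axis) against log10 mean CPM of the 10 samples (x axis), 1 point per gene tested; red points rose and blue points fell at adjusted p under 0.05. The 43 rises and 18 falls lie close to 0 at high levels, and CRIM1-DT and TTLL1, near 1 CPM, lie farthest out.

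The libraries also differed in a measure tied to GC content, and whether its source was technical was not tested. The deviation of each gene's log2 CPM from its mean over all samples was correlated, across genes within a sample, with the GC content of the gene's transcript. This Pearson r was between -0.0761 and 0.0134 in SPARC 0.05 samples and between -0.0120 and 0.270 in control samples. At the other doses it was between -0.126 and -0.0177 in SPARC 0.5 samples and between -0.127 and 0.0993 in SPARC 5 samples. The mean was -0.0355 ± 0.0323 in SPARC 0.05 samples and 0.128 ± 0.106 in control samples (SD, n = 5 each; 2-sided exact permutation p = 0.0159, 0.0397 adjusted over 5 library measures). The same correlation with log2 transcript length averaged 0.000925 ± 0.0274 in SPARC 0.05 samples and -0.0807 ± 0.0465 in control samples (2-sided exact permutation p = 0.0159, 0.0397 adjusted). The genes that rose had a median GC content of 41.1% and a median transcript length of 9288 bases, those that fell 60.5% and 3062.5 bases, and all genes tested 48.0% and 2472 bases. Among genes at 1 CPM or more, split into 10 bins by GC content, the median log2 fold change was 0.05 in the lowest bin and -0.05 in the highest. When a smooth term in GC content and length was taken out of every library, 13 genes passed (0.0567%), 9 higher and 4 lower, among them 9 of the 61. The adjusted p after this correction is given beside the results as a measured value.

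**Figure D2:**
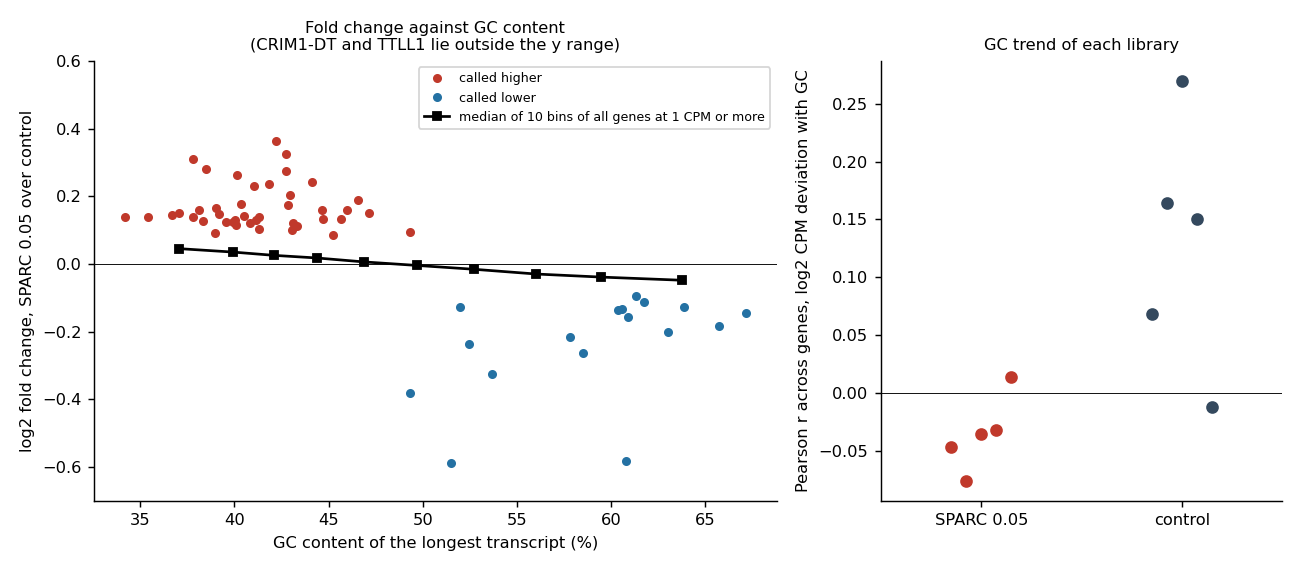
Left, log2 fold change of the called genes (y axis) against the GC content of the longest transcript in percent (x axis), with the median over 10 bins of all genes at 1 CPM or more as black squares, which pass from 0.05 at low GC to -0.05 at high GC. Right, the GC trend of each library as Pearson r across genes, for SPARC 0.05 and then control; 4 of the 5 control libraries lie above every SPARC 0.05 library.

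Sterol synthesis gave the smallest p-value of the comparison. HMGCS1 encodes the cytosolic synthase that makes HMG-CoA, the precursor of mevalonate. It measured 231.6, 225.6, 229.7, 223.2 and 216.6 CPM in the SPARC 0.05 samples, against 192.8, 192.2, 191.9, 182.9 and 179.9 CPM in the control samples. Every SPARC 0.05 sample lay above every control sample. The log2 fold change was 0.26 ± 0.029 (SE), a level 19.9% higher (edgeR adjusted p = 6.17e-10; 1.83e-07 after GC and length correction). INSIG1, the endoplasmic reticulum protein that retains the SREBP complex and is itself an SREBP target, measured 157.8, 163.3, 163.4, 157.6 and 149.1 CPM in the SPARC 0.05 samples, against 145.1, 142.9, 144.5, 141.3 and 134.5 CPM in the control samples. These groups did not overlap either, and INSIG1 rose by 0.16 ± 0.030 on the log2 scale (edgeR adjusted p = 0.0027; 0.00429 after correction). MSMO1, a methyl sterol oxidase late in the pathway, averaged 162 ± 7.85 CPM in SPARC 0.05 samples and 145 ± 6.21 CPM in control samples and rose by 0.16 ± 0.031 (edgeR adjusted p = 0.00346; 0.0476 after correction), with 1 SPARC 0.05 sample inside the control range.

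In the other direction, ABCG1 (chr21:42199689-42297244, GRCh38), an LXR target that exports cholesterol, measured 17.5, 16.0, 15.4, 15.6 and 17.6 CPM in the SPARC 0.05 samples, against 23.1, 20.8, 18.3, 20.0 and 20.7 CPM in the control samples. All SPARC 0.05 samples were lower than all control samples, and the log2 fold change was -0.32 ± 0.069 (edgeR adjusted p = 0.0114; 0.0476 after correction). It did not pass without control replicate 1 (adjusted p = 0.0696), SPARC 0.05 replicate 2 (0.0585) or SPARC 0.05 replicate 3 (0.0631). Of the 29 tested genes of the sterol synthesis and uptake list, 4 rose, 1 fell and 24 did not pass, with a median log2 fold change of 0.05, beside 0.00 over all genes tested. The 24 that did not pass ranged from -0.09 to 0.16, and 17 of them were above 0. IDI1, the isopentenyl diphosphate isomerase, was at the top of that range (0.16 ± 0.044, edgeR adjusted p = 0.0798, and 0.352 after correction), with non-overlapping groups. DESeq2 called IDI1, and limma voom and the authors' deposited table did not.

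**Figure D3:**
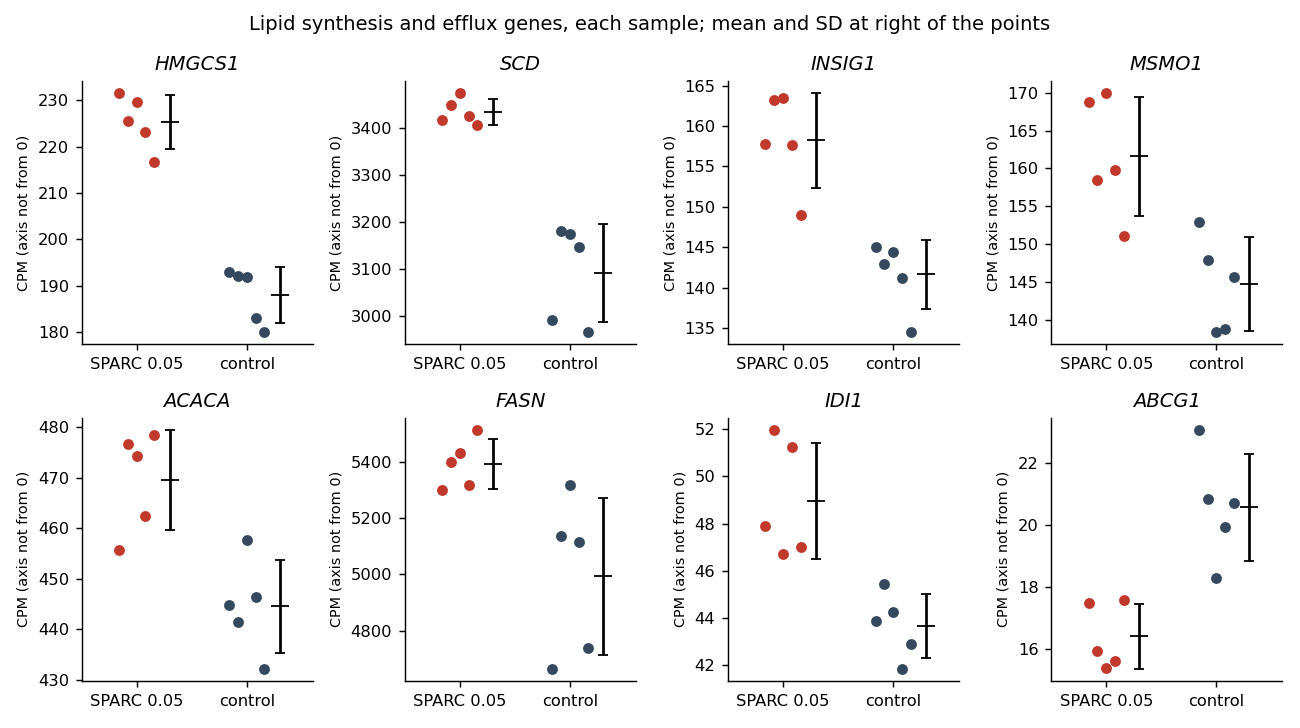
CPM (y axes, which do not start at 0) of 8 lipid genes in each of the 5 SPARC 0.05 samples (left, red) and 5 control samples (right, dark), with the mean and SD beside the points. HMGCS1, SCD, INSIG1 and IDI1 do not overlap between groups and lie higher at SPARC 0.05, ABCG1 does not overlap and lies lower, and MSMO1, FASN and ACACA overlap.

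Of the fatty acid list edgeR called 1 gene, SCD. SCD, the stearoyl-CoA desaturase that makes monounsaturated fatty acids, measured 3415.6, 3447.8, 3474.0, 3425.6 and 3405.1 CPM in the SPARC 0.05 samples, against 2991.6, 3179.9, 3174.1, 3145.8 and 2964.9 CPM in the control samples. The groups did not overlap, and SCD rose by 0.15 ± 0.019 on the log2 scale (edgeR adjusted p = 4.46e-08; 5.72e-07 after correction). FASN, the fatty acid synthase, measured 5302.3, 5402.2, 5433.6, 5318.0 and 5516.7 CPM in the SPARC 0.05 samples, against 4662.9, 5136.3, 5317.7, 5114.7 and 4737.1 CPM in the control samples. The groups overlapped at the highest control sample. Its log2 fold change was 0.11 ± 0.035 with an edgeR adjusted p of 0.268, and after GC and length correction it was 0.14 with an adjusted p of 2.4e-08. The authors' deposited table listed FASN at 0.11 with an adjusted p of 0.00154. The lowest controls for FASN and SCD were replicates 1 and 5, which also had the lowest GC trend among controls (r = 0.0679 and -0.0120, against 0.151 to 0.270 in the other 3). The GC content was 65.3% for FASN and 47.1% for SCD, and the log2 fold change of SCD after correction was 0.13. Whether the GC trend had a part in these control levels was not tested. Of 18 tested members of the fatty acid list, 1 rose (SCD), 17 did not pass and 14 were above 0, with a median of 0.07. DESeq2 called 5 of the 18, limma voom called 2, and 3 passed in the authors' deposited table. ACACA, the acetyl-CoA carboxylase upstream of FASN, had a log2 fold change of 0.08 ± 0.023 (edgeR adjusted p = 0.123, and 0.599 after correction). DESeq2 and limma voom called ACACA, and the authors' deposited table listed it at 0.08 with an adjusted p of 0.0398.

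The lipid genes made up more of the calls after the GC and length correction than before it. Of the 13 genes that then passed, 9 belonged to the sterol or fatty acid list, 8 higher and 1 lower. HMGCS1, INSIG1, MSMO1, SCD, FASN, MVD and DHCR7 were among those that were higher, and ABCG1 was lower. MVD (mevalonate decarboxylase) and DHCR7 (the last reductase of cholesterol synthesis) had GC contents of 63.7% and 58.3%. The log2 fold change of MVD was 0.08 without correction (edgeR adjusted p = 0.313) and 0.14 with it (edgeR adjusted p = 0.0129). That of DHCR7 was 0.06 without correction (edgeR adjusted p = 0.323) and 0.10 with it (edgeR adjusted p = 0.00954). The remaining 4 were MALAT1, IER3, CRIM1-DT and MTCO2P2. Before correction, 6 of the 61 calls were in these lists, which hold 47 tested genes. Above 0 were 21 of 29 sterol and 14 of 18 fatty acid genes before correction, and 37 of the 47 genes after it. Over all genes tested, 49.1% were above 0 before correction. The share called over all genes was 0.266% before correction and 0.0567% after it.

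**Figure D4:**
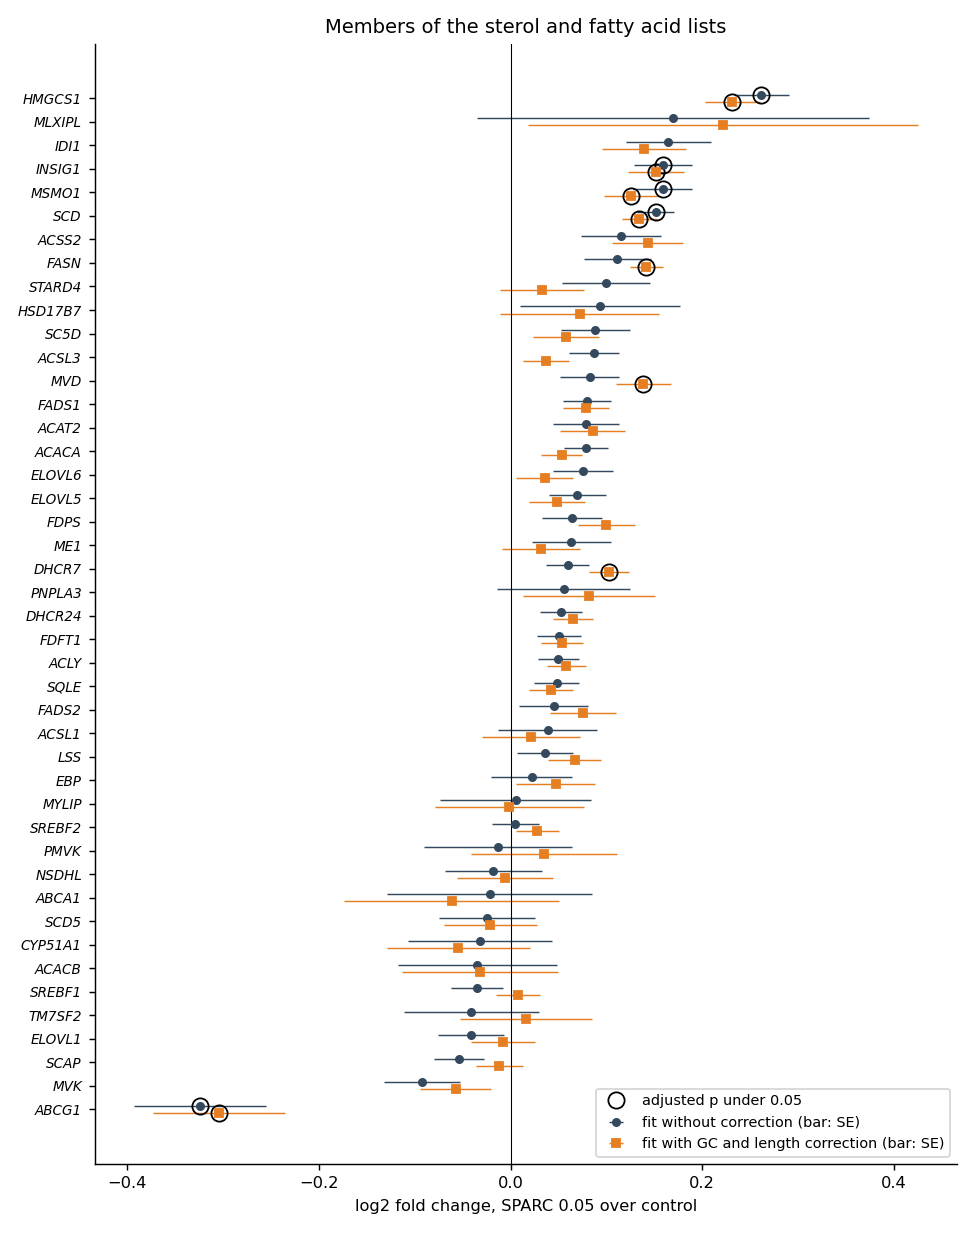
Log2 fold change of SPARC 0.05 over control with its SE (x axis) for 44 of the 47 tested members of the sterol and fatty acid lists, from the fit without correction (dark circles) and with GC and length correction (orange squares); ringed points pass adjusted p under 0.05. HMGCS1 lies highest among the ringed genes and ABCG1 lowest, and FASN, MVD and DHCR7 are ringed only with the correction.

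The promoters of HMGCS1, INSIG1, MSMO1 and SCD are shown because these lipid genes rose together in both fits and RefSeq (GRCh38.p14) gives a window of 250 bases before to 50 after their start. Capitals mark CCAAT or its reverse complement ATTGG, the letters bound by NF-Y, a factor that works with SREBPs at sterol-regulated promoters; this motif was chosen after the values were seen.
HMGCS1, chr5:43313363-43313662, minus strand: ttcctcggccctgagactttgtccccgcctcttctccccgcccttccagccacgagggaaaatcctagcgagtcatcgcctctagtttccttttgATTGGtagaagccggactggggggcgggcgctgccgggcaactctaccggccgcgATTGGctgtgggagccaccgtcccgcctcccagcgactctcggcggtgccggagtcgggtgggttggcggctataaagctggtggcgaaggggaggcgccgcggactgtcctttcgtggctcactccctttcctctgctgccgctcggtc
INSIG1, chr7:155297628-155297927, plus strand: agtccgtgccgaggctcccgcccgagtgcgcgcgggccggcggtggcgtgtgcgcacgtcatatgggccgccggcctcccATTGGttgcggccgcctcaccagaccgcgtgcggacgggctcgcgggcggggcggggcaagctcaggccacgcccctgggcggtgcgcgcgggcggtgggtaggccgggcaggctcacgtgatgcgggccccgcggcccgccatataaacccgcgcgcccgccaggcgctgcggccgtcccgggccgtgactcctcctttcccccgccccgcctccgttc
MSMO1, chr4:165327419-165327718, plus strand: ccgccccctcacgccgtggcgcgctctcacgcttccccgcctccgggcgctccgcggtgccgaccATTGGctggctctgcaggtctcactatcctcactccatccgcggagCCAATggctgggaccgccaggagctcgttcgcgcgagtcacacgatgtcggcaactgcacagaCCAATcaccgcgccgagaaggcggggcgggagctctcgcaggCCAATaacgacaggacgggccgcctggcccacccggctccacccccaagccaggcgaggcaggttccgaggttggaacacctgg
SCD, chr10:100346983-100347282, plus strand: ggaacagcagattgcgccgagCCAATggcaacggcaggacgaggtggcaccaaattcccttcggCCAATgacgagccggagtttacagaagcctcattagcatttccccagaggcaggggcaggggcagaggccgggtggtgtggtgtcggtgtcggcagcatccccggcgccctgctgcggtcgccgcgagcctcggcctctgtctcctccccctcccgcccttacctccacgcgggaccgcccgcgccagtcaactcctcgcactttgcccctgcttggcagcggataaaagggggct
The HMGCS1 window held 2 matches, INSIG1 1, MSMO1 4 and SCD 2, with no overlapping matches, and a second HMGCS1 window starting downstream held none. Of all 35116 windows in the table, 34.6% held at least 1 match on either strand. The sterol element TCACCCCAC, searched on both strands, was in none of these windows and in 0.430% of all windows. These matches describe the letters only.

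Of the matricellular and fibrillar matrix list, FN1 and CCDC80 rose. FN1 encodes fibronectin, the adhesive glycoprotein of provisional matrix, and lies at chr2:215360440-215436172 (GRCh38). It measured 768.6, 903.3, 902.2, 953.6 and 898.0 CPM in the SPARC 0.05 samples, against 642.9, 655.5, 683.5, 692.3 and 766.8 CPM in the control samples. The lowest SPARC 0.05 sample and the highest control sample nearly met. The log2 fold change was 0.36 ± 0.058, a level 28.6% higher (edgeR adjusted p = 0.0114), and FN1 passed in each of the 10 fits that left out 1 library, but not after GC correction (adjusted p = 0.0712). FSTL1, a secreted glycoprotein of the SPARC family, averaged 37.2 ± 0.907 CPM in SPARC 0.05 samples and 31.5 ± 1.44 CPM in control samples and rose by 0.24 ± 0.050 (edgeR adjusted p = 0.00812; 0.0633 after correction). Of 6 tested SPARC family genes edgeR called 1, FSTL1, and 3 were above 0. SMOC1 of the same family averaged 1.62 ± 0.268 CPM in SPARC 0.05 samples and 2.39 ± 0.313 CPM in control samples. Its groups did not overlap, and it did not pass (-0.56 ± 0.213, edgeR adjusted p = 0.323). CCDC80, a secreted matrix-associated protein, averaged 30.5 ± 2.37 CPM in SPARC 0.05 samples and 25.3 ± 2.36 CPM in control samples and rose by 0.27 ± 0.060 (edgeR adjusted p = 0.0198). It passed in 3 of the 10 fits that left out 1 library, with adjusted p between 0.00228 and 0.0961, and had adjusted p = 0.337 after GC correction. The serine protease gene PRSS23 rose by 0.11 ± 0.026 (edgeR adjusted p = 0.0317; 0.365 after correction). Of 29 tested matricellular and fibrillar matrix genes 2 rose and none fell, with a median of 0.01, and 18 were above 0.

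The remaining adhesion and polarity genes that rose had a GC-corrected adjusted p above 0.05. FAT4, an atypical cadherin of the Hippo pathway, averaged 141 ± 6.18 CPM in SPARC 0.05 samples and 127 ± 4.79 CPM in control samples (log2 fold change 0.16 ± 0.029, edgeR adjusted p = 0.00225; 0.169 after correction). TEAD1, the DNA-binding partner of YAP and TAZ, had a log2 fold change of 0.10 ± 0.024 (edgeR adjusted p = 0.0194; 0.531 after correction). AHNAK, a giant scaffold protein beneath the plasma membrane, averaged 4662 ± 167 CPM in SPARC 0.05 samples and 4367 ± 67.1 CPM in control samples, with overlapping groups (0.09 ± 0.018, edgeR adjusted p = 0.00346; 0.324 after correction). The edgeR fit called no member of the TGF-beta response (27 tested, median 0.01, 4 with unadjusted p under 0.05) or YAP/TAZ target lists (23 tested, 0.02, 4 with unadjusted p under 0.05), and neither did DESeq2, limma voom or the authors' deposited table. It also called none of the integrin and focal adhesion list (25 tested, 0.01, 8 with unadjusted p under 0.05), of which DESeq2 and the authors' deposited table called TNS4. None of the basement membrane and hemidesmosome list (23 tested, 0.03, 7 with unadjusted p under 0.05) was called by edgeR, DESeq2 or limma voom, and the authors' deposited table called DST.

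MALAT1 (chr11:65497688-65506516) encodes an abundant noncoding RNA retained in nuclear speckles. It measured 7877.7, 8472.6, 8395.0, 7850.6 and 8215.9 CPM in the SPARC 0.05 samples, against 6957.8, 7200.8, 7380.8, 7362.6 and 7208.4 CPM in the control samples. All SPARC 0.05 samples were higher. It rose by 0.18 ± 0.021 (edgeR adjusted p = 1.62e-06; 0.000125 after correction). NEAT1, the RNA scaffold of paraspeckles encoded near it on chromosome 11, averaged 422 ± 29.6 CPM in SPARC 0.05 samples and 376 ± 14.9 CPM in control samples and did not pass (0.17 ± 0.047, edgeR adjusted p = 0.176). The authors' deposited table listed NEAT1 at 0.17 with an adjusted p of 0.00319, and DESeq2 called it too. Of 23 tested abundant long noncoding RNAs edgeR called 1, MALAT1, and the median was 0.00.

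IER3 (chr6:30743199-30744554, GENCODE 29 on GRCh38) is an immediate early gene induced by stress and growth factors that affects survival signalling. It measured 90.3, 79.7, 87.4, 87.3 and 83.6 CPM in the SPARC 0.05 samples, against 107.0, 105.4, 98.6, 96.0 and 107.4 CPM in the control samples. The groups did not overlap. IER3 fell by 0.26 on the log2 scale (SE 0.039, edgeR adjusted p = 2.8e-05; 0.0064 after correction). Of 35 tested EGFR ligands and immediate early genes it alone passed in edgeR, DESeq2, limma voom and the authors' deposited table, with 24 of the 35 below 0 and a median of -0.03. KLF4, a factor of epithelial differentiation from the same list, averaged 18.8 ± 0.434 CPM in SPARC 0.05 samples and 21.6 ± 1.79 CPM in control samples without passing (-0.20 ± 0.065, edgeR adjusted p = 0.177). VEGFA, the vascular growth factor, had a log2 fold change of -0.24 ± 0.054 with non-overlapping groups and did not pass (edgeR adjusted p = 0.0763; 0.253 after correction). DESeq2 called it, and the authors' deposited table listed it at -0.24 with an adjusted p of 0.000304. The 26 tested inflammatory and NF-kB targets gave no call in edgeR, DESeq2, limma voom or the authors' deposited table (2 had an unadjusted p under 0.05 in edgeR) and a median of -0.08, and CXCL2, a neutrophil chemokine, was at -0.37 ± 0.114 (edgeR adjusted p = 0.159).

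Of the 30 tested G2/M genes edgeR called 1, CENPF, and of the 30 tested G1/S and DNA replication genes none (3 had an unadjusted p under 0.05, and DESeq2, limma voom and the authors' deposited table called 0). CENPF, a kinetochore protein of G2 and mitosis, averaged 348 ± 9.87 CPM in SPARC 0.05 samples and 321 ± 9.02 CPM in control samples (log2 fold change 0.12 ± 0.028, edgeR adjusted p = 0.0266; 0.547 after correction). Other called genes, picked after their values were seen from outside these lists, included ASPM (spindle poles, 0.15 ± 0.032), NCAPG (a condensin subunit, 0.17 ± 0.036) and KIF20B (a mitotic kinesin, 0.14 ± 0.034), with edgeR adjusted p of 0.0182, 0.0114 and 0.0457. PRKDC and ATR, kinases of the DNA damage response, the second also picked after its values were seen, rose by 0.09 ± 0.020 and 0.13 ± 0.031 (edgeR adjusted p = 0.026 and 0.0267). These 6 genes had GC contents between 34.2% and 45.3%, and after GC and length correction they had adjusted p between 0.265 and 0.797. Of the G2/M list 25 were above 0 (49.1% of all genes tested were), with a median of 0.06 (0.04 after correction) and a median GC content of 43.8%. DESeq2 and the authors' deposited table each called 4 of the 30 (ANLN, CENPF, MKI67 and TOP2A), and limma voom called 1, ANLN. MKI67, the proliferation marker, had non-overlapping groups, at 966 ± 28.9 CPM in SPARC 0.05 samples and 887 ± 42.8 CPM in control samples, and did not pass (edgeR adjusted p = 0.123); the authors' deposited table listed MKI67 at an adjusted p of 0.00429.

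Among nuclear genes of mitochondrial function, ATP5F1D, a subunit of ATP synthase, fell by 0.13 on the log2 scale (SE 0.030, edgeR adjusted p = 0.0266; 0.571 after correction), and NDUFAF8, an assembly factor of complex I, fell by 0.20 (SE 0.044, edgeR adjusted p = 0.0132; 0.324 after correction). Of 35 tested nuclear oxidative phosphorylation genes edgeR called 1, which fell, and 29 were below 0 (50.9% of all genes tested were), with a median of -0.04 (-0.03 after correction). DESeq2, limma voom and the authors' deposited table each called 2 of the 35, among them ATP5F1D. Of 36 tested cytosolic ribosomal protein genes edgeR called none (6 had an unadjusted p under 0.05, and DESeq2, limma voom and the authors' deposited table called 0) and 34 were below 0, with a median of -0.03. Of the 15 genes encoded in mitochondrial DNA, edgeR, DESeq2 and limma voom called 0, and 2 had an unadjusted p under 0.05 in edgeR. The authors' deposited table called 2, MT-ND5 (0.14, adjusted p = 0.00285) and MT-ND4L (0.20, adjusted p = 0.0366). In the edgeR fit 13 of the 15 were above 0, and the median was 0.08. Their share of all counts averaged 3.78 ± 0.153% in SPARC 0.05 samples and 3.60 ± 0.0811% in control samples (2-sided exact permutation p = 0.0635, 0.106 adjusted over 5 library measures). EEF1D, a subunit of the translation elongation complex, averaged 179 ± 5.2 CPM in SPARC 0.05 samples and 196 ± 4.17 CPM in control samples and fell by 0.13 (SE 0.027, edgeR adjusted p = 0.00812; 0.302 after correction).

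The largest fold changes were in genes of low level. CRIM1-DT, a divergent transcript beside the CRIM1 gene (chr2:36354749-36355114), measured 0.263, 0.329, 0.234, 0.150 and 0.595 CPM in the SPARC 0.05 samples, against 0.864, 1.54, 0.911, 0.999 and 1.54 CPM in the control samples. The groups did not overlap, and its log2 fold change was -1.86 ± 0.346 (edgeR adjusted p = 0.00225; 0.00284 after correction). CRIM1 itself, which encodes a membrane protein that binds BMPs, was at 0.08 ± 0.024 (edgeR adjusted p = 0.175). CRIM1 lies at chr2:36355926-36551135, so the listed spans of the pair do not overlap and reads within them differ by position. No source used here gives the strand setting or the annotation release of the counting, so the spans that were counted may differ from these. MTCO2P2, a pseudogene of a mitochondrial gene whose reads may be shared with that gene, fell by 0.38 (SE 0.077, edgeR adjusted p = 0.00646; 0.0476 after correction), with overlapping groups. It averaged 13.7 ± 1.54 CPM in SPARC 0.05 samples and 17.8 ± 1.82 CPM in control samples. RN7SKP180, a 7SK RNA pseudogene whose reads may likewise be shared, fell by 0.59 (SE 0.113, edgeR adjusted p = 0.0341; 0.138 after correction). Its mean was 19.3 ± 3.12 CPM in SPARC 0.05 samples and 28.9 ± 3.11 CPM in control samples. KAZALD1, a secreted protein with a Kazal domain, averaged 3.79 ± 0.501 CPM in SPARC 0.05 samples and 5.69 ± 0.630 CPM in control samples (-0.58 ± 0.132, edgeR adjusted p = 0.0198; 0.120 after correction). TTLL1, a subunit of a tubulin polyglutamylase, rose, averaging 1.39 ± 0.522 CPM in SPARC 0.05 samples and 0.641 ± 0.135 CPM in control samples (1.11 ± 0.277, edgeR adjusted p = 0.0462; 0.103 after correction).

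The other rises named by size included PCLO, SLC8A1, LINC00342, TET1, DENND4C and TCAF1. SLC8A1, a sodium-calcium exchanger, averaged 14.9 ± 1.09 CPM in SPARC 0.05 samples and 12.0 ± 1.44 CPM in control samples (0.31 ± 0.076, edgeR adjusted p = 0.0421; 0.457 after correction). TET1, which oxidizes methylcytosine, was at 0.23 ± 0.056 (edgeR adjusted p = 0.0378; 0.324 after correction). TCAF1 passed in none of the 10 fits that left out 1 library (adjusted p 0.0651 to 0.160). SLC7A11, the cystine importer counted in both the ATF4 and the NRF2 lists, rose by 0.14 ± 0.034 (edgeR adjusted p = 0.0419; 0.797 after correction) as the only member called in either. TERT, the telomerase reverse transcriptase, averaged 52.2 ± 4.06 CPM in SPARC 0.05 samples and 59.3 ± 2.98 CPM in control samples and fell by 0.18 (SE 0.045, edgeR adjusted p = 0.0446; 0.365 after correction). The line carries telomerase as its immortalizing gene, and reads of an introduced copy and of the endogenous gene cannot be told apart in these counts. Other falls were HMGA1, a chromatin architectural protein (-0.09 ± 0.021, edgeR adjusted p = 0.0182; 0.746 after correction), and FBXL19, an F-box protein that binds CpG islands (-0.15 ± 0.031, edgeR adjusted p = 0.0114; 0.324 after correction).

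Set beside the higher doses, the genes of the low dose followed different courses. The 3 doses share the control samples, so each dose was compared with SPARC 0.05 directly. HMGCS1 averaged 188 ± 6.06 CPM in control, 225 ± 5.91 CPM at SPARC 0.05, 237 ± 9.87 CPM at SPARC 0.5 and 221 ± 11.1 CPM at SPARC 5. The difference of SPARC 0.05 from SPARC 5 was 0.03 on the log2 scale, with a 95% interval of -0.03 to 0.09 (edgeR adjusted p = 0.642), and from SPARC 0.5 it was -0.07, with an interval of -0.13 to -0.02 before adjustment (edgeR adjusted p = 0.495). SCD averaged 3091 ± 104 CPM in control, 3434 ± 27.6 CPM at SPARC 0.05, 3439 ± 53.3 CPM at SPARC 0.5 and 3434 ± 106 CPM at SPARC 5. Its differences were 0.00 from SPARC 0.5 (interval -0.04 to 0.03) and 0.00 from SPARC 5 (interval -0.04 to 0.04). The interval for INSIG1 was -0.07 to 0.04 for the difference from SPARC 0.5 and -0.07 to 0.05 for that from SPARC 5. For these 3 genes a difference between doses was not detected, and the intervals bound its size. Other lipid genes did differ. MSMO1 was lower at SPARC 0.05 than at SPARC 5 by a log2 difference of -0.12 (edgeR adjusted p = 0.00332, and 0.000907 after correction). ACACA was higher at SPARC 0.05 than at SPARC 5 by 0.09 (edgeR adjusted p = 0.00354, and 3.97e-05 after correction). FASN was higher by 0.11 without passing (edgeR adjusted p = 0.0579) and passed after correction (0.15, edgeR adjusted p = 2.21e-11).

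FN1 rose further with dose: it averaged 688 ± 48.3 CPM in control, 885 ± 69.0 CPM at SPARC 0.05, 1175 ± 71.3 CPM at SPARC 0.5 and 2540.2 ± 92.3 CPM at SPARC 5, and SPARC 0.05 was lower than SPARC 0.5 by a log2 difference of -0.41 (edgeR adjusted p = 0.00617). PRSS23 also lay lower at SPARC 0.05 than at SPARC 0.5 (-0.13, edgeR adjusted p = 0.00617). Several genes that differed between these doses had not passed at SPARC 0.05 against control. TGFBI, a matrix protein induced by TGF-beta, was at 0.01 ± 0.022 against control (edgeR adjusted p = 0.955) and at -0.21 against SPARC 0.5 (edgeR adjusted p = 4.27e-11). PMEPA1, a feedback inhibitor of TGF-beta signalling, was at 0.11 ± 0.047 against control (edgeR adjusted p = 0.447) and at -0.31 against SPARC 0.5 (edgeR adjusted p = 2.05e-05). ITGB6, an epithelial integrin subunit that activates TGF-beta, was at 0.09 ± 0.038 against control (edgeR adjusted p = 0.436) and at -0.21 against SPARC 0.5 (edgeR adjusted p = 0.00101). THBS1, a matricellular protein, was at 0.11 ± 0.055 against control (edgeR adjusted p = 0.603), did not pass against SPARC 0.5 (-0.26, edgeR adjusted p = 0.0767) and was at -1.29 against SPARC 5 (edgeR adjusted p = 1.07e-11). IGFBP3 and XYLT1 averaged under 1 CPM in both SPARC 0.05 and control samples and did not pass (edgeR adjusted p = 0.927 and 0.979), and KRT15 was at -0.16 ± 0.138 (edgeR adjusted p = 0.820). Over all genes, 0.179% differed between SPARC 0.05 and SPARC 0.5 (0.0218% higher and 0.157% lower at SPARC 0.05), and 8.28% between SPARC 0.05 and SPARC 5 (2.74% higher and 5.54% lower at SPARC 0.05).

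For other genes that changed at the lowest dose, the level at the highest dose lay nearer to control, and the difference between these doses passed. These genes were picked by the difference of the same 5 SPARC 0.05 samples from control. That choice alone favours a difference from the other doses, so these comparisons are not an independent test. The check after GC and length correction given below used the same samples. MALAT1 averaged 7222 ± 170 CPM in control, 8162 ± 288 CPM at SPARC 0.05, 7864 ± 240 CPM at SPARC 0.5 and 7469 ± 181 CPM at SPARC 5, and SPARC 0.05 was higher than SPARC 5 by 0.13 (edgeR adjusted p = 1.86e-05). IER3 averaged 103 ± 5.25 CPM in control, 85.7 ± 4.08 CPM at SPARC 0.05, 92.9 ± 5.32 CPM at SPARC 0.5 and 104 ± 6.22 CPM at SPARC 5, and SPARC 0.05 was lower than SPARC 5 by a log2 difference of -0.28 (edgeR adjusted p = 6.11e-08). ABCG1 was lower at SPARC 0.05 than at SPARC 5 by a log2 difference of -0.37 (edgeR adjusted p = 2.74e-05), with 16.4 ± 1.05 CPM at SPARC 0.05 and 21.3 ± 1.33 CPM at SPARC 5. SLC7A11 and PRKDC were higher at SPARC 0.05 than at SPARC 5 by 0.15 and 0.08 (edgeR adjusted p = 0.000882 and 0.00204). CRIM1-DT was lower at SPARC 0.05 than at SPARC 0.5 (-1.43, edgeR adjusted p = 0.0484) and than at SPARC 5 (-1.25, edgeR adjusted p = 0.0116), and MTCO2P2 likewise (-0.38 and -0.24, edgeR adjusted p = 0.00617 and 0.0311). Each difference between doses given as passed for FN1, PRSS23, TGFBI, PMEPA1, ITGB6, THBS1, MALAT1, IER3, ABCG1, SLC7A11, PRKDC, CRIM1-DT and MTCO2P2 kept its sign and passed after GC and length correction, a check added after the data were seen.

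**Figure D5:**
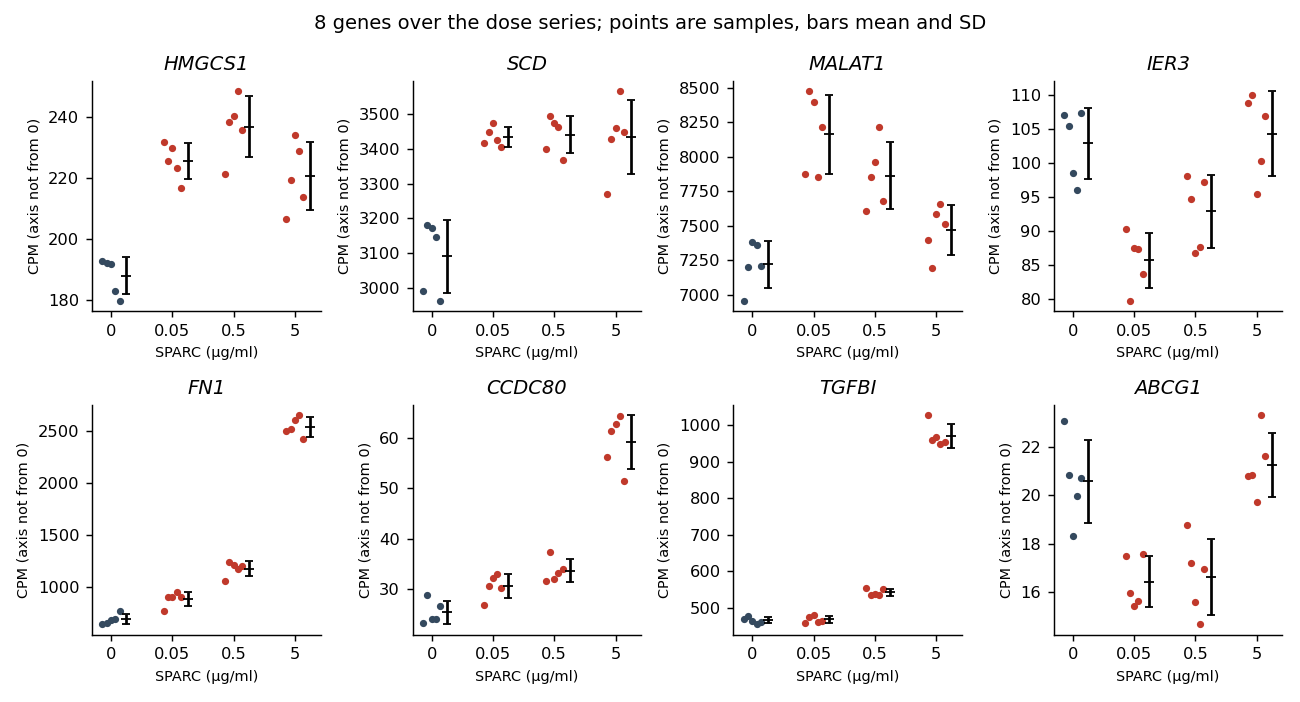
CPM (y axes, which do not start at 0) of 8 genes at 0, 0.05, 0.5 and 5 µg/ml SPARC (x axis, low to high), 5 samples per dose as points with mean and SD beside them. For HMGCS1 and SCD no difference between 0.05 and 5 µg/ml was detected, FN1, CCDC80 and TGFBI are highest at 5 µg/ml, and MALAT1, IER3 and ABCG1 at 5 µg/ml lie near the level at 0.

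Of the 43 gene lists examined, 11 held at least 1 gene called by edgeR and 32 held none. Of those 32, DESeq2 called a gene in 4, the authors' deposited table in 6 and limma voom in 0. Among the 27 of those 32 with at least 10 tested members the medians lay between -0.08 and 0.08. Stratified epithelial differentiation (20 tested) had a median of -0.07, limbal and basal epithelium (20 tested) -0.05, interferon response (25 tested) -0.05, and hypoxia and glycolysis (30 tested) -0.03. In all, 14 of the 61 called genes were members of a list. The authors' deposited table for this dose listed 110 of 16045 genes at adjusted p under 0.05 (0.686%), 64 higher and 46 lower, and 59 of the 61 genes called here were among them. In the authors' deposited table FN1 had a log2 fold change of 0.37 with an interval of 0.29 to 0.44.

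The number of calls depended on single libraries. It was 34 without control replicate 2, 39 without control replicate 3 and 23 without control replicate 4. It was 22 without SPARC 0.05 replicate 2, 34 without replicate 3 and 33 without replicate 5 of that group. The genes that passed in all 10 such fits were HMGCS1, SCD, INSIG1, MSMO1, FN1, FSTL1, FAT4, MALAT1, IER3, CRIM1-DT, MTCO2P2, AHNAK, EEF1D, UGGT1 and USP9X, 15 of the 61. The other 46 passed in 0 to 9 of the 10 fits.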

How the data were processed

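The authors deposited whole read counts per Ensembl gene on GRCh38, per the file headers and the submitters' processing notes, which name STAR 2.7.9a, featureCounts 2.0.3, Salmon 1.5.2, edgeR and limma; neither the annotation release nor the strand setting was found in the sources. Per the labels, ribosomal RNA was depleted and cDNA primed with random hexamers. The authors' deposited comparison table holds log2 fold changes, p-values and adjusted p-values, and score columns (test statistic and log-odds, not used), per the file headers.

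From the counts, 1 entry was kept for each of 168 repeated identifiers. Genes passed filterByExpr (minimum count 10), and CPM used TMM factors (prior count 2 for log2 CPM). All 20 samples entered 1 model of group means in edgeR 4.0.16 (R 4.3.3; robust quasi-likelihood, limma 3.58.1, DESeq2 1.42.0 as alternatives). SE is the log2 fold change divided by the square root of F, and intervals are normal. GC content and length came from the longest GENCODE 29 transcript (98.0% of tested genes) and were fitted with splines of 5 degrees of freedom. On simulated counts the test called 40 of 50 genes raised by 0.25, 45 of 50 lowered by 0.25, and 10 of 22153 unchanged genes. The changed genes all had a mean of at least 10 CPM, and the simulated counts held no GC or length trend. Changes smaller than 0.25 were not simulated. Replicates of a group differed by more than counting noise (chi-square per gene 4.09 to 9.39). Intervals from counts cover counting error only.

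Members and lists were chosen with earlier results of these data known. Named genes were the 12 largest rises and falls passing at 1 CPM or more with all 5 samples on 1 side of the control mean, the 10 smallest p-values, the 10 most abundant called genes, up to 3 members per list, SPARC and 10 genes known from higher doses; ASPM, ATR, DHCR7, EEF1D, FASN, IDI1, KIF20B, MKI67, MVD, NCAPG and UGGT1 were chosen after their values were seen. Some genes that the counts include are not reported here by name. Alternatives were other scalings, filters, tools, a replicate block, the GC and length correction and leaving out libraries.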

Additional observations from a re-analysis of the deposited data

Results flagged for a closer look

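Among 188 groups of 5 values examined for a sample that stands apart (named genes and library measures), 6 had a gap between an extreme sample and its nearest neighbour that was large for the range of the group. Chance alone flags about 1 group in 20. The ratio of gap to range was 0.722 for FN1 in SPARC 0.05 samples, where replicate 1 was lowest at 768.6 CPM and the others lay between 898.0 and 953.6 CPM. It was 0.825 for HMGA1, where SPARC 0.05 replicate 4 was highest at 799.7 CPM, against 754.5 to 762.2 CPM in the other 4 samples. For NCAPG it was 0.767 (SPARC 0.05 replicate 1 highest), for UGGT1 0.712 (SPARC 0.05 replicate 4 lowest), for KIF20B 0.718 (SPARC 0.05 replicate 5 lowest) and for KLF4 0.775 (control replicate 1 highest).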

How the results depend on the processing

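DESeq2 called 203 genes, 122 higher and 81 lower, and included 58 of the 61. The GC and length correction left 13 (9 higher, 4 lower), and with the replicate block added 29 (19 higher, 10 lower). Genes called lower numbered 36 with library sizes only, 36 at a minimum count of 50 and 33 with the replicate block, which called 87 in all and kept 59 of the 61. Same-numbered samples correlated between -0.00685 and 0.0191, and 1 of 5 correlated best with its own number. The labels do not say whether replicate numbers pair the samples. Leaving out 1 library gave 22 to 82 calls, 15 to 53 higher and 6 to 29 lower. Without control replicates 2, 3 and 4, a choice made after seeing the data, 76 genes were called, 20 of them among the 61. No gene of the 61 changed sign under any alternative. Sign was also followed for the 28 uncalled genes examined by name, and those that changed it were THBS1 (-0.0377) and KRT15 (0.16) without those 3 controls, and XYLT1 with the GC and length correction and replicate block (-0.0131) and with limma voom (-0.0882). Leaving out 1 library gave TGFBI between -0.000403 and 0.0207, IGFBP3 between -1.04 and 0.216 and XYLT1 between -0.291 and 0.253. The causes were not tested. RLE factors, all entries of repeated identifiers, no low-count filter, limma voom and a fit of the 10 samples gave 55 to 68 calls.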
